A study of Mus musculus with 3 samples.

Results

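Mimetic cells are medullary thymic epithelial cells (mTECs) that take on the gene programs of peripheral tissues, and 10 transcription factors that direct those programs elsewhere in the body were followed here: Pou2f3, Spib, Sox8, Insm1, Neurod1, Hnf4a, Spdef, Foxj1, Foxa1 and Myog. They were picked by name, as 10 of the 32293 genes and transgenes counted, and were read in barcodes called as cells that held at least 1 unique molecular identifier (UMI) of the epithelial gene Epcam and none of the endothelial gene Pecam1 or the fibroblast gene Pdgfra. This gave 2197 epithelial barcodes of 17677 called, with 594 of 8616 in the Foxn1Lin female library, 525 of 3583 in the Foxn1Lin male library and 1078 of 5478 in the wild type male library. A barcode with at least 1 UMI of a factor is called positive for it.

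The libraries are 10x 3′ single-cell RNA-seq of CD45- thymic stroma, which is the thymus without its blood cells, from untreated C57BL/6 mice that were all 20 months old. Foxn1Lin stands for the Foxn1 lineage trace, in which Cre driven by Foxn1, the gene that sets thymic epithelial identity, lastingly switches on a tdTomato reporter, read from the CAG promoter, in cells that have expressed it. The wild type male mice carry no reporter. Thymi were pooled before sorting, each group is 1 library, and genotype and sex are only partly crossed, so no value can be tested between libraries. Of the wild type library, one label gives the cells as CD45- and another as CD45-PECAM1+, and 944 of its 5478 called barcodes held Pecam1 with neither Epcam nor Pdgfra. The protocol names female mice for every library, the labels female mice for 1 of the 3.

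Each of these factors is known as the switch of a cell type outside the thymus. Pou2f3 is required for tuft cells, the chemosensory cells of gut and airway, Spib and Sox8 for microfold (M) cells, which sample antigen over lymphoid follicles, and Insm1 and Neurod1 for neuroendocrine cells. Hnf4a directs enterocyte and hepatocyte genes, Spdef goblet cell secretion, Foxj1 motile cilia, Foxa1 airway and gut epithelium, and Myog the fusion of muscle precursors. In the medulla, cells that resemble these types display peripheral antigens to developing T cells, and many of them arise from mTECs that expressed Aire, the regulator of promiscuous gene expression.

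The epithelial barcodes carried the markers of their class. At least 2 of 7 thymic epithelial (TEC) genes were held by 87.5% of them in the Foxn1Lin female library, 90.3% in the Foxn1Lin male library and 94.2% in the wild type library. Their median depth was 8569, 10284 and 14159 UMIs in that order, and libraries held 33386621 to 61258534 UMIs in all. Between 3 and 14 called barcodes were shared by each pair of libraries, none of them epithelial. Genes of other classes were present too: at least 3 of 9 hematopoietic genes were held by 151, 80 and 237 epithelial barcodes. The parathyroid list, mainly Pth, summed to 2077, 2470 and 2102 counts per 1000000 UMIs (CPM) and was held by 66.8%, 12.6% and 18.4% of barcodes, with all 3 of its genes in only 5, 1 and 1. The part that these transcripts and free RNA play in the shares below was not tested.

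At least 1 of the 10 factors was found in 38.4% of epithelial barcodes of the Foxn1Lin female library (228, 95% exact binomial interval 34.5 to 42.4), 35.4% of the Foxn1Lin male library (186, 31.3 to 39.7) and 47.1% of the wild type library (508, 44.1 to 50.2). Intervals here and below cover counting error only. When each barcode was thinned to 2000 UMIs, which left 520, 478 and 1004 barcodes, these shares became 16.7%, 17.6% and 21.0%.

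**Figure D1:**
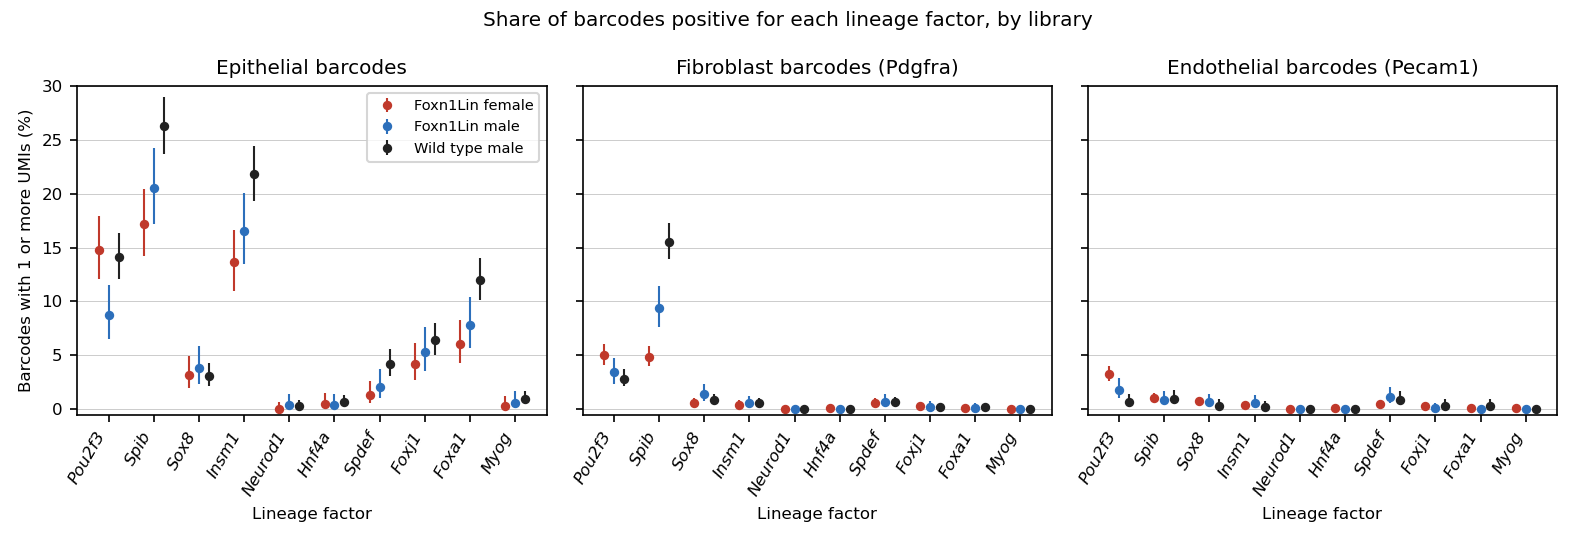
Share of barcodes with at least 1 UMI of each factor (percent, vertical axis) in epithelial, fibroblast and endothelial barcodes, by library, with 95% exact binomial intervals. Spib, Insm1 and Pou2f3 were held by 8.76% to 26.3% of epithelial barcodes in each library and Neurod1, Hnf4a and Myog by under 1%, while Spib reached 15.5% of fibroblast barcodes in the wild type library.

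Spib, an ETS family factor, was the member with the most positive barcodes: 102 in the Foxn1Lin female library (17.2%), 108 in the Foxn1Lin male library (20.6%) and 283 in the wild type library (26.3%). Its level over all epithelial barcodes was 48.7, 68.0 and 71.8 CPM. Insm1, a zinc finger factor of endocrine cells, had 81 (13.6%), 87 (16.6%) and 235 (21.8%) positive barcodes at 29.3, 85.3 and 75.9 CPM. The Foxn1Lin female library was the lowest for both genes, also after thinning (5.58%, 9.41% and 9.06% for Spib, 5.77%, 6.49% and 8.96% for Insm1), but at full depth the intervals of its shares overlapped those of the Foxn1Lin male library. Pou2f3, a POU domain factor, was found in 88 (14.8%), 46 (8.76%) and 152 (14.1%) barcodes at 25.9, 13.3 and 30.3 CPM, so that here the Foxn1Lin male library was the lowest, and it stayed so after thinning (3.46%, 1.67% and 3.49%).

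Foxa1, a forkhead factor, was found in 36 (6.06%), 41 (7.81%) and 129 (12.0%) barcodes, and Foxj1, the forkhead factor of motile cilia, in 25 (4.21%), 28 (5.33%) and 69 (6.40%). Sox8 was found in 19 (3.20%), 20 (3.81%) and 33 (3.06%) barcodes, with shares that lie within each other's intervals. Spdef, an ETS factor of goblet cells, was found in 8 (1.35%), 11 (2.10%) and 45 (4.17%).

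The remaining factors were rare. Hnf4a was held by 3, 2 and 7 barcodes and never by more than 2 UMIs. Neurod1 was held by none of 594 barcodes of the Foxn1Lin female library, which at the limit of 3 counts allows a share of barcodes with a UMI of up to 0.505% (exact binomial upper limit 0.619%), and by 2 and 3 barcodes of the male libraries, with 6 UMIs in the richest. Myog was held by 2, 3 and 10 barcodes. Unlike those of Hnf4a, Myog UMIs were concentrated: the female barcodes held 12 and 1, the Foxn1Lin male barcodes 9, 4 and 1, and the 5 richest wild type barcodes 16, 5, 4, 3 and 2.

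On the GRCm38 build (GENCODE vM21), Pou2f3 lies at chr9:43123939-43210369, Spib at chr7:44525993-44532071, Sox8 at chr17:25565892-25570686, Insm1 at chr2:146221921-146225020 and Neurod1 at chr2:79452521-79456751. Hnf4a is at chr2:163506808-163572910, Spdef at chr17:27714352-27728955, Foxj1 at chr11:116330704-116335399, Foxa1 at chr12:57540628-57546916 and Myog at chr1:134289989-134292548. Each count is over the whole gene, introns included. Annotated genes overlap Sox8 (2810468N07Rik, opposite strand), Neurod1 (Cerkl, same strand, and Gm26755, opposite) and Hnf4a (Gm25881, same strand, and Hnf4aos, opposite). How far these overlaps affect the counts was not tested.

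The next comparison asked which factors were epithelial within this stroma, by summing UMIs per library over epithelial barcodes and over barcodes with Pecam1 or Pdgfra but no Epcam (5281, 1929 and 2905). In edgeR's quasi-likelihood test with library as a block, 7 of the 8 factors that passed the filter on low counts were higher in epithelial barcodes, where 27.7% of all 18140 genes tested were (55.3% differed in either direction). Log2 fold changes are given with their standard error (SE) and Benjamini-Hochberg adjusted p. Insm1 rose the most, by 6.04 ± 0.27 (adjusted p = 0.00068), from 0.582, 0.772 and 0.715 CPM outside the epithelium to 29.3, 85.3 and 75.9 CPM within it. Foxa1 rose by 5.68 ± 0.41 (adjusted p = 0.0010) and Myog by 5.61 ± 0.78 (adjusted p = 0.0046), the latter from 13, 14 and 35 UMIs in 2, 3 and 10 epithelial barcodes. Foxj1 rose by 3.79 ± 0.45 (adjusted p = 0.0030).

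Spib, Pou2f3 and Sox8 differed less. Spib rose by 2.46 ± 0.29 (edgeR, adjusted p = 0.0030), Pou2f3 by 2.05 ± 0.39 (adjusted p = 0.0114) and Sox8 by 1.57 ± 0.30 (adjusted p = 0.0118). All 3 libraries were higher in epithelial barcodes for each. Without the Foxn1Lin male library Sox8 did not pass (1.33), which left 6 factors. Spdef did not pass, with a log2 fold change of 0.84 ± 0.42 (adjusted p = 0.151), and Hnf4a and Neurod1 had too few counts to be tested.

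Pou2f3 and Spib were also seen in the other classes. Pou2f3 was held by 5.03%, 3.42% and 2.83% of fibroblast barcodes, whose median depth was 6882, 9188 and 7972 UMIs, and by 3.27%, 1.76% and 0.636% of endothelial barcodes at 3562, 6947 and 6588 UMIs. Spib was held by 4.84%, 9.40% and 15.5% of fibroblast but by about 1% of endothelial barcodes (1.02%, 0.882% and 0.953%). Insm1, at a like share in epithelial barcodes, was held by at most 0.598% of fibroblast barcodes. Droplets below the called range, which hold free RNA, had Spib at 25.2, 49.6 and 47.7 CPM and Insm1 at 11.4, 34.2 and 51.7 CPM. Pou2f3 was at 9.53, 5.94 and 13.7 CPM and Foxj1 at 3.62, 6.53 and 4.58 CPM there, where epithelial barcodes had Foxj1 at 5.88, 7.44 and 7.83 CPM, with intervals that overlapped those of the droplets in all 3 libraries. Foxa1 was at 3.68, 6.53 and 19.1 CPM in the droplets and at 9.42, 12.4 and 14.4 CPM in epithelial barcodes, so that in the wild type library the droplets were higher, with overlapping intervals (14.9 to 24.1 and 12.8 to 16.2). Foxa1 was held by at most 0.163% of fibroblast barcodes. Sox8 was at 1.09, 2.97 and 2.96 CPM in the droplets and at 4.41, 5.54 and 2.53 CPM in epithelial barcodes, and Spdef at 0.689, 0.891 and 3.23 against 1.47, 1.89 and 4.06 CPM, with intervals that overlapped in the Foxn1Lin male and wild type libraries for Sox8 and in all 3 for Spdef. Myog was at 0.919, 1.49 and 1.08 CPM in the droplets and at 1.91, 1.89 and 1.73 CPM in epithelial barcodes, with overlapping intervals in all 3 libraries. The part of free RNA in the epithelial shares and levels was not tested. Droplets held Spib and Insm1 at a ratio of 2.20, 1.45 and 0.922, and fibroblast barcodes at a ratio of 14.1, 11.8 and 30.4.

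Positive barcodes were deeper than negative ones for every factor with more than 15 positive barcodes in all. Insm1-positive barcodes had a median of 14806, 21345 and 22843 UMIs against 7312, 8944 and 12361, and Pou2f3-positive barcodes 16980, 17078 and 21064 against 7268, 9796 and 12934. Shares of barcodes holding Aire, Ccl21a, Psmb11 or a second factor are therefore also given over the 3 libraries after thinning, while shares holding genes of a list are at full depth.

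Pou2f3-positive barcodes were set against negative ones to see whether they carried the tuft program. None of 14926 genes tested passed an adjusted p under 0.05 in edgeR's quasi-likelihood test (0% in each direction), 1270 had an unadjusted p under 0.05, and DESeq2 called 162. Without the Foxn1Lin male library 117 genes passed, 8 of them tuft genes, and without the Foxn1Lin female library 2, 1 of them a tuft gene. The 12 tuft genes tested, of 13 listed, had a median log2 fold change of 3.96, beside 0.00 over all genes. Trpm5, the cation channel of taste and tuft cells, was at 39.4, 22.6 and 70.1 CPM in Pou2f3-positive and at 2.18, 2.47 and 1.82 CPM in negative barcodes (log2 fold change 4.34 ± 0.43, edgeR, Benjamini-Hochberg adjusted p = 0.0824). Plcb2, which acts upstream of it, was at 35.4, 11.3 and 31.1 against 1.59, 0.989 and 1.01 CPM (4.42 ± 0.36, adjusted p = 0.0824). The cytokine gene Il25 was at 21.1, 5.26 and 17.98 against 0, 0.165 and 0.692 CPM. All 3 genes, which were chosen after their values were seen, were higher in positive barcodes in every library. Gnat3, the taste G protein, was at 66.2 and 69.8 CPM in the Foxn1Lin female and wild type libraries but at 0 in the Foxn1Lin male library.

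Read per barcode, at least 3 tuft genes were held by 62 of 286 Pou2f3-positive barcodes (21.7%) and by 1.94% of the 1911 negative ones. This share was greater with more Pou2f3 UMIs. It was 8.14% of 172 barcodes with 1 UMI, 15.4% of 52 with 2 to 3 UMIs and 64.5% of 62 with 4 or more. The median depth of these classes was 18118, 23442 and 20238 UMIs, against 10763 in barcodes with none. In the class of 4 or more, the share was 46.7% of 15 barcodes in the Foxn1Lin female library. It was 33.3% of 6 in the Foxn1Lin male library and 75.6% of 41 in the wild type library. For Foxj1 and the ciliated list the classes of 0, 1, 2 to 3 and 4 or more UMIs gave 2.12%, 10.0%, 28.6% and 50.0%, and for Foxa1 and the airway list 1.31%, 3.54%, 17.5% and 33.3%, whereas for Insm1 and the neuroendocrine list they gave 0.557%, 8.87%, 5.16% and 13.7%. Median depth rose over these classes too, from 11279 to 25304 UMIs for Foxj1, 10889 to 34232 for Foxa1 and 10090 to 25944 for Insm1. The part of depth in these shares was not tested. The classes are small within a library. In the class of 4 or more, the ciliated list was held by 1 of 3, 2 of 2 and 4 of 9 Foxj1-positive barcodes. For Foxa1 the airway list was held by 0 of 3, 0 of 4 and 10 of 23, so that all 10 came from the wild type library. In the Foxn1Lin female library the neuroendocrine list was held by 0 of 39, 0 of 24 and 1 of 18 barcodes with 1, 2 to 3 and 4 or more Insm1 UMIs, beside 5 of 513 with none. In reverse, 17, 20 and 62 barcodes held at least 3 tuft genes, and 70.6%, 30.0% and 71.0% of them held Pou2f3. The same count for the neuroendocrine list was 6, 16 and 29 barcodes, of which 16.7%, 87.5% and 89.7% held Insm1.

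**Figure D2:**
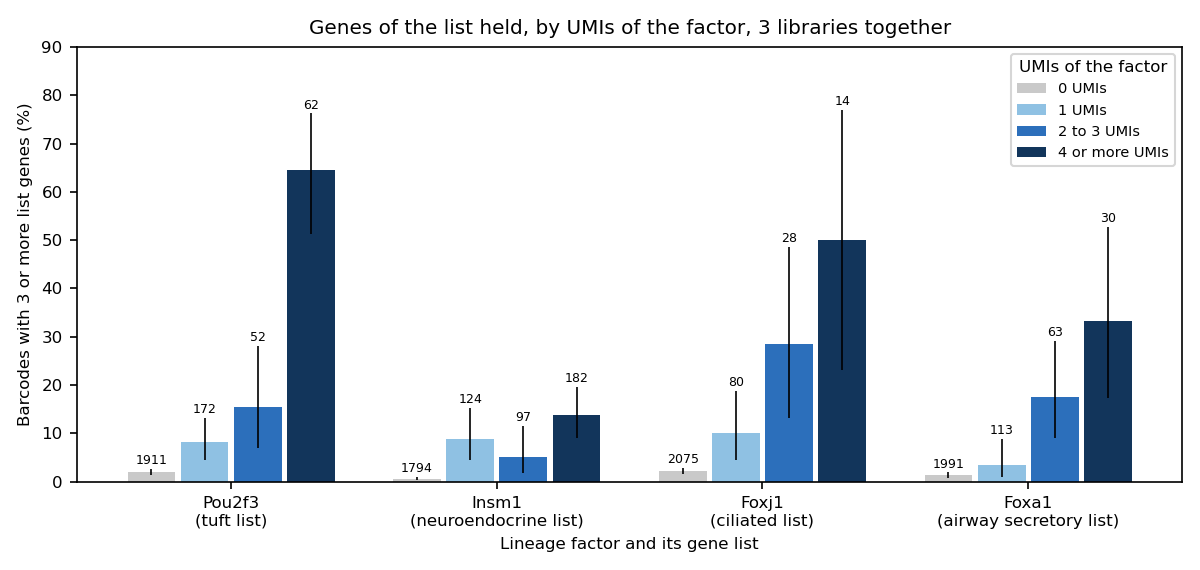
Share of epithelial barcodes with at least 3 genes of the factor's list (percent, vertical axis) by the UMIs of the factor in the barcode (bar colour), over the 3 libraries, with 95% exact binomial intervals and the number of barcodes above each bar. For Pou2f3 the share with tuft genes runs from 1.94% at 0 UMIs to 64.5% at 4 or more, and for Insm1 the share with neuroendocrine genes from 0.557% to 13.7%. For each factor the barcodes with 0 UMIs had the lowest median depth. The libraries are pooled, and in the Foxn1Lin female library 1 of 81 Insm1-positive barcodes held at least 3 neuroendocrine genes.

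Spib-positive barcodes differed broadly from negative ones: 2409 of 15242 genes were higher and 2414 lower, 15.8% in each direction and 31.6% together. Of the 8 microfold genes, 5 were higher: the chemokines Ccl20 and Ccl9, the decoy receptor Tnfrsf11b (osteoprotegerin), Pglyrp1, which binds peptidoglycan, and Marcksl1. Ccl20 was at 142.7, 385.5 and 273.2 CPM in Spib-positive and at 19.8, 22.7 and 17.5 CPM in negative barcodes (log2 fold change 3.61 ± 0.27, edgeR's quasi-likelihood test, Benjamini-Hochberg adjusted p = 0.0024). Gp2, the uptake receptor of mature M cells, did not pass: it was at 286.7 against 1.73 CPM in the Foxn1Lin female library and at 85.5 against 184.8 CPM in the wild type library. The list had a median log2 fold change of 2.71, beside -0.03 over all genes. At least 3 microfold genes were held by 77.3% of Spib-positive, 81.9% of Sox8-positive and 46.6% of all epithelial barcodes as well as by 81.1% of Insm1-positive ones.

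Genes of other lists moved with Spib too. Of 13 tuft genes, 11 were higher, with Rgs13 at 107.8, 16.4 and 141.9 against 1.54, 0.788 and 1.85 CPM, and the list's median log2 fold change was 4.51. Of 12 enterocyte and hepatocyte genes tested, 8 were higher. All 4 genes of Aire-expressing mTECs (Aire, Fezf2, Cd80 and Ubd) were higher, as were the factors Sox8, Insm1, Pou2f3 and Foxa1, with log2 fold changes of 2.86, 2.79, 2.13 and 2.01. The 5 largest changes were those of Wap, Ces1h, Gm13010, Pla2g12b and Rgs13, between 5.88 and 6.81, and the 2 most negative those of Pth (-7.47) and Ighg2b (-7.07). Of 9 hematopoietic genes 5 were also higher and 3 of 7 fibroblast genes lower, and the part of other cells in these differences was not tested. The 4823 genes called became 2932 without the Foxn1Lin male and 1467 without the wild type library.

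Of 14017 genes tested, 516 were higher (3.68%) and 570 lower (4.07%, together 7.75%) in Sox8-positive barcodes, and 6 of the 8 microfold genes were among the higher ones. Ccl9 was at 487.7, 832.9 and 293.3 CPM in Sox8-positive and at 17.1, 34.8 and 20.8 CPM in negative barcodes (log2 fold change 4.40 ± 0.28, edgeR's quasi-likelihood test, Benjamini-Hochberg adjusted p = 0.00018). Ccl20 changed by 4.29 ± 0.31, Pglyrp1 by 3.83 ± 0.43, Tnfrsf11b by 2.94 ± 0.23 and Tnfaip2, a gene of membrane nanotubes, by 1.73 ± 0.35. Spib itself was at 364.7, 397.1 and 341.5 against 37.8, 49.8 and 60.8 CPM (2.91 ± 0.24). The largest other changes included Siglecf (5.84), the kidney gene Umod (5.50) and the chemokine Ccl6 (5.17). None of the 11 tuft genes tested passed in this comparison, and the goblet genes Agr2 and Wfdc2 were lower. Without the Foxn1Lin female library 594 genes passed in place of 1086.

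Insm1-positive barcodes again differed in many genes: of 15374 tested, 2426 were higher (15.8%) and 2654 lower (17.3%), together 33.0%. Of 8 neuroendocrine genes tested, of 10 listed, 3 were higher and 1 lower. Chgb, a granin of secretory granules, was at 6.89, 8.75 and 7.35 CPM in Insm1-positive and at 0.182, 0.574 and 0 CPM in negative barcodes (log2 fold change 5.24 ± 0.94, edgeR's quasi-likelihood test, Benjamini-Hochberg adjusted p = 0.0132). The prohormone convertase gene Pcsk1 (2.55 ± 0.56) and Scg5 (2.33 ± 0.36) were higher as well. Chga, another granin, went the other way, from 980.4, 829.7 and 526.9 CPM in negative to 32.9, 73.7 and 45.3 CPM in positive barcodes (-3.97 ± 0.29). Chga is known as a product of parathyroid cells as well, and Pth, the parathyroid hormone gene, fell in the same contrast (-7.51). Both genes were also lower with Spib, Sox8, Spdef and Foxa1. The part of parathyroid cells was not tested. Other lists moved with Insm1 as well: 9 of 12 enterocyte and hepatocyte genes, 5 of 8 microfold genes and 5 of 9 hematopoietic genes were higher, and 4 of 7 fibroblast and 4 of 7 mural genes lower. The part of other cells in these differences was not tested.

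The 5 genes that rose the most with Insm1 were Mup6, a liver gene, the chemokine Ccl1, Rlbp1, a retinal gene, Tmsb15a and Chgb, between 5.24 and 6.01 on the log2 scale. Aire rose by 3.31 ± 0.19, from 86.2, 34.5 and 44.8 CPM to 634.2, 475.7 and 484.8 CPM, and Foxn1 by 0.89 ± 0.22. Ccl21a, the chemokine gene of immature mTECs, fell by 2.26 on the log2 scale and Psmb11, the thymoproteasome gene of cortical TECs, by 4.01. In the 2 libraries with the reporter, tdTomato was at 341 and 611 CPM in Insm1-positive and at 903 and 1501 CPM in negative barcodes. At least 3 neuroendocrine genes were held by 1.23%, 16.1% and 11.1% of Insm1-positive and by 0.975%, 0.457% and 0.356% of negative barcodes, so that the Foxn1Lin female library (1 of 81 positive barcodes, interval 0.0313 to 6.69) showed no difference beyond its interval. The 3 neuroendocrine genes higher became 6 without the Foxn1Lin female library and 2 without either of the others. The 5080 genes called became 2885 without the Foxn1Lin male and 2165 without the wild type library, and 673 when barcodes with Aire were left out, where Foxn1 changed by -0.54.

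**Figure D3:**
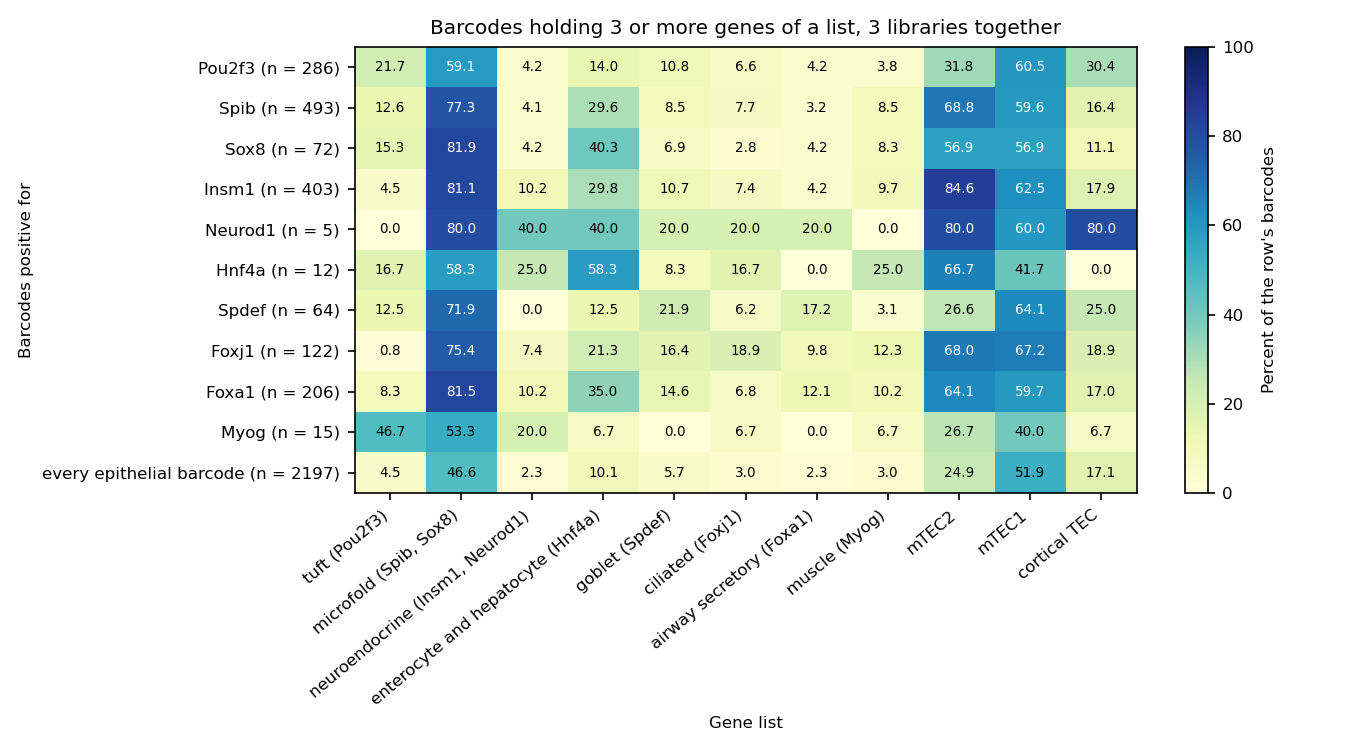
Share of the barcodes positive for each factor (rows, with their number) that held at least 3 genes of each list (columns), in percent over the 3 libraries, beside every epithelial barcode in the last row. Pou2f3 and Myog rows reach 21.7% and 46.7% for the tuft list against 4.51% of every barcode, while the microfold list is held by 46.6% of every barcode and by 81.1% of Insm1-positive ones. Of the 7 Myog-positive barcodes with at least 3 tuft genes, 6 were from the wild type library.

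Foxj1-positive barcodes differed in fewer genes, 174 higher (1.19%) and 252 lower (1.73%) of 14570, together 2.92%. The 5 largest rises were Cdc20b (6.77), Mcidas (5.87), Shisa8 (5.70), Lrrc23 (5.67) and Deup1 (5.50). Mcidas, a coregulator that starts multiciliation, was at 30.6, 39.8 and 23.0 CPM in Foxj1-positive and at 0.631, 0.598 and 0.328 CPM in negative barcodes (5.87 ± 0.43, edgeR's quasi-likelihood test, Benjamini-Hochberg adjusted p = 0.0080). Deup1, which builds the deuterosomes that multiply centrioles, was at 67.8, 36.9 and 13.4 against 1.10, 1.94 and 0.0546 CPM. Both genes were higher in all 3 libraries, which was a condition for being listed among the 5 largest rises. Of 9 ciliated genes tested, of 14 listed, 4 were higher: Mcidas, Ccdc39 (3.06), Tppp3 (1.47) and Rfx2 (1.46), a factor that works with Foxj1 on cilium genes. The axonemal dynein genes Dnah5 and Dnah9 did not pass (0.73 and 0.69). These 4 became 1 without the Foxn1Lin female library, 2 without either of the others, 1 with no library block, 1 without low-quality barcodes and the highest doublet scores, and 7 by DESeq2. The 426 genes called became 27 without the Foxn1Lin female and 109 without the wild type library.

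RFX factors such as Rfx2 bind the X-box, and the promoters of the genes that moved most with Foxj1 are shown for its half-site GTTGCC (capitals, either strand, GGCAAC on the other). Sequences are from RefSeq on GRCm38.p6, 250 bases before to 50 after a start site, read along the gene's strand: Deup1 at chr9:15627797-15628096 (minus strand), Lrrc23 at chr6:124779678-124779977 (minus), Mcidas at chr13:112993618-112993917 (plus) and Shisa8 at chr15:82212766-82213065 (minus).
Deup1: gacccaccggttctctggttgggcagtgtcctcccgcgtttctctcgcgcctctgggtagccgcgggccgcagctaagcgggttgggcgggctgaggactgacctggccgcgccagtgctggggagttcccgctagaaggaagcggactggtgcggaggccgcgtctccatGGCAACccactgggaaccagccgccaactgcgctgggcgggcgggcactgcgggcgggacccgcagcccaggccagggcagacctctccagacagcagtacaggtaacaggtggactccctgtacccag
Lrrc23: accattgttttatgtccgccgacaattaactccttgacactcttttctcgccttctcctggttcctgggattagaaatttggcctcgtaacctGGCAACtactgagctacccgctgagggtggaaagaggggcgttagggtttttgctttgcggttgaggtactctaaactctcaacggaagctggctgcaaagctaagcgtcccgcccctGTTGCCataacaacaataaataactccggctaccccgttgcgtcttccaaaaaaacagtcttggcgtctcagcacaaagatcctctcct
Mcidas: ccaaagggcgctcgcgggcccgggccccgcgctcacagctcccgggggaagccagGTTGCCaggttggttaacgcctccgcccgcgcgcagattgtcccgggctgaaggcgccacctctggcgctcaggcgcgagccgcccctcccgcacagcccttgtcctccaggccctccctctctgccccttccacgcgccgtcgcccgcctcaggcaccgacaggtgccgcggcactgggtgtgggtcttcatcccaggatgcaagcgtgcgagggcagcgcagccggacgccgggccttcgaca
Shisa8: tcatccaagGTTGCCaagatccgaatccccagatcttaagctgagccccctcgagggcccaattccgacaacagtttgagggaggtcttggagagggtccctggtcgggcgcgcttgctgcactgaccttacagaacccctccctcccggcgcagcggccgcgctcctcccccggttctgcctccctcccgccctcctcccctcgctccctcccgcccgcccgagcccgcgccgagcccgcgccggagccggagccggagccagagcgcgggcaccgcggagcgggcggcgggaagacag

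The half-site was present in these 4 of the 5 genes and not in the window of Cdc20b, and it occurred in 7 of 12 ciliated list genes with a promoter entry (58.3%), against 14.1% of all 27025 gene symbols with promoters of this length. A second start site of Deup1 was without it. The other motifs searched, on both strands, were ATGCAAAT (the POU octamer, in 0 of 10 tuft genes and 1.97% of all symbols), GAGGAAGT (the ETS motif of the Spi family, in 0 of 7 microfold genes and 3.69%), TGTTTAC (forkhead, in 0 of 6 airway genes and 4.05%) and CAGCTG (E-box, in 7 of 13 muscle genes and 18.3%). None of these is contained in another. The motifs were chosen with the results of the lists known, and a match is a string of letters and not a measured site.

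Foxa1-positive barcodes had 503 higher (3.33%) and 369 lower genes (2.44%) of 15104, together 5.77%. Of 8 airway secretory genes tested, of 9 listed, 3 were higher. Bpifa1, a secreted airway defense protein, was at 111.9, 141.3 and 2225 CPM in Foxa1-positive and at 5.74, 2.91 and 52.2 CPM in negative barcodes (log2 fold change 5.11 ± 0.29, edgeR's quasi-likelihood test, Benjamini-Hochberg adjusted p = 0.0131), the wild type library being by far the highest. When barcodes were thinned to 2000 UMIs, the Bpifa1 change was -0.89. The lactoferrin gene Ltf (2.91 ± 0.46) and Lypd2 (1.55 ± 0.18) were the others. Car8 and Dcpp2, at 4.99 and 5.08, and Cyp2c68, at 5.74, were among the 5 largest changes, and Car8 with Scg5 and Stxbp5l made 3 of 7 neuroendocrine genes higher. The microfold genes Ccl20, Ccl9, Pglyrp1 and Tnfrsf11b were higher too. So were 4 of 12 enterocyte and hepatocyte genes and 2 of 9 hematopoietic genes, while 2 of 7 fibroblast and 3 of 7 mural genes were lower. The part of other cells in these differences was not tested. The 3 airway genes became 1 without the Foxn1Lin female or the wild type library and 0 with no library block. The 872 genes called became 4 without the Foxn1Lin female, 356 without the Foxn1Lin male and 161 without the wild type library.

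Spdef-positive barcodes, 64 in all, gave 1 higher gene (0.00704%) and 15 lower (0.106%) of 14198, together 0.113%. The single higher gene was on the goblet list: Wfdc2, a secreted protease inhibitor, at 543.0, 1312 and 5405 CPM in Spdef-positive and at 111.0, 99.5 and 223.5 CPM in negative barcodes (log2 fold change 3.59 ± 0.43, edgeR's quasi-likelihood test, Benjamini-Hochberg adjusted p = 0.0400), a call that was lost with no library block (4.11). The gel-forming mucin gene Muc5b was at 470.5 against 4.03 CPM in the wild type library, at 19.9 against 4.36 CPM in the Foxn1Lin female library and at 0 against 0.280 CPM in the Foxn1Lin male library, and did not pass. At least 3 goblet genes were held by 21.9% of Spdef-positive and 5.20% of negative barcodes, and at least 3 airway genes by 17.2% and 1.88%. None of 12 tuft genes tested passed, but their median log2 fold change was 2.12, beside 2.43 for the 7 goblet genes tested and -0.08 over all genes, and Trpm5 was at 132.4, 25.0 and 28.4 CPM in Spdef-positive and at 9.03, 5.45 and 15.4 CPM in negative barcodes. The 16 genes called became 431 without the Foxn1Lin female, 261 without the Foxn1Lin male and 28 without the wild type library.

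The 3 rarest factors allowed no fit and are given by barcode. Of the 15 Myog-positive barcodes, 1 held at least 3 of 17 muscle genes, a female barcode with 50 UMIs of the myosin light chain gene Myl1. Des, the muscle intermediate filament gene, was held by 5 of 15, Ttn (titin) by 3 and Mylpf by 2. At least 3 tuft genes were held by 7 of 15 (46.7%), against 4.22% of Myog-negative barcodes: Avil, Trpm5, Gnb3 and Rgs13 were each found in 6 of them, and Pou2f3 in 9. By library, at least 3 tuft genes were held by 0 of 2, 1 of 3 and 6 of 10 Myog-positive barcodes. Barcodes with at least 3 muscle genes numbered 16, 11 and 39, and 1 of these held Myog. Of the 12 Hnf4a-positive barcodes, 7 held at least 3 enterocyte and hepatocyte genes (58.3%, against 9.84% of negative barcodes), with the paralog Hnf4g in 9 and Apoa4 and Cdhr5 in 5 each. Of the 5 Neurod1-positive barcodes, 2 held at least 3 neuroendocrine genes and 3 held Insm1.

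Co-detection was then counted over the 45 pairs of factors, of which 36 shared at least 1 barcode and 9 none. Barcodes with 2 or more factors made up 14.7%, 19.4% and 26.4% of the epithelial barcodes, and 2.12%, 2.93% and 5.48% after thinning, with at most 4, 5 and 5 factors in a barcode. Spib and Insm1 met most often, in 262 barcodes. Insm1 was held by 44.1%, 53.7% and 56.2% of Spib-positive and by 7.32%, 6.95% and 9.56% of Spib-negative barcodes, and after thinning by 22.4% and 6.21% over the 3 libraries.

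At full depth Spib was also held with other factors, that is, by 68.1% of Sox8-positive, 56.3% of Foxa1-positive, 54.9% of Foxj1-positive and 41.3% of Pou2f3-positive barcodes, against 18.9% to 20.9% of the barcodes negative for the factor in the first 3 cases and 19.6% in the last. After thinning these shares were 41.2% (7 of 17), 15.2% (5 of 33), 11.5% (3 of 26) and 29.5% (18 of 61), against 7.57% to 8.20%, and the exact binomial intervals for Foxa1 (5.11 to 31.9) and Foxj1 (2.45 to 30.2) held the share of the negative barcodes. Insm1 was held by 50.5% of Foxa1-positive and 48.4% of Foxj1-positive barcodes but by 21.7% of Pou2f3-positive ones, near the 17.8% of Pou2f3-negative ones. Thinned, Insm1 was held by 21.2% of Foxa1-positive, 23.1% of Foxj1-positive and 6.56% of Pou2f3-positive barcodes, against 7.31%, 7.34% and 7.57% of the negative ones. The Insm1 and Spdef pair was found in 9 barcodes, 2.23% of those with Insm1 and 3.07% of those without.

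**Figure D4:**
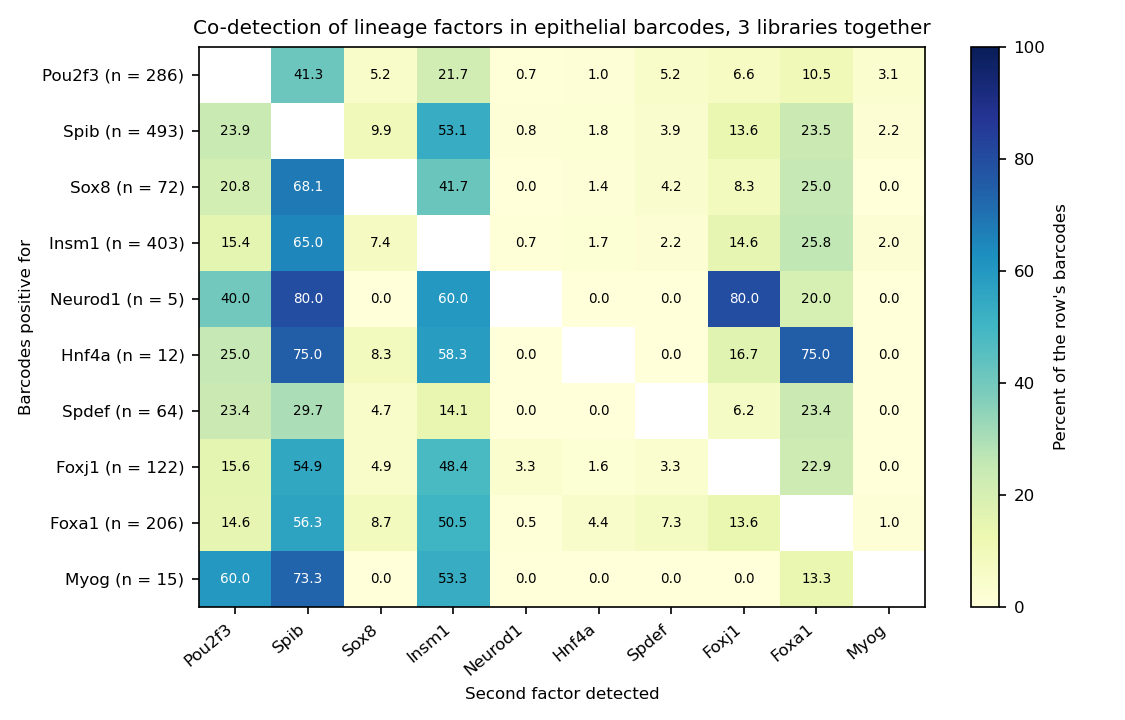
Co-detection of the factors over the 3 libraries: each cell gives the percentage of barcodes positive for the row's factor that also held the column's factor, on a colour scale from 0 to 100%. The Spib and Insm1 columns hold most of the high shares, with 68.1% of Sox8-positive barcodes holding Spib and 50.5% of Foxa1-positive barcodes holding Insm1.

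Last, positive barcodes were read for Aire, Ccl21a and Psmb11, which mark Aire-expressing mTECs, immature mTECs and cortical TECs. At least 1 of the 3 was held by 73.3%, 68.3% and 70.3% of the barcodes with any factor and by 51.1%, 38.6% and 40.7% of those with none. Aire made most of this difference, with 52.2%, 50.0% and 51.2% against 10.9%, 5.31% and 7.19%. Over the 3 libraries Ccl21a was held by 36.2% against 27.8%, and Psmb11 by 9.33% against 14.3%. After thinning, Aire was held by 35.3% against 11.1% and Psmb11 by 1.31% against 7.35%, and Ccl21a turned direction, with 12.8% against 21.5%.

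Of the factors with more than 15 positive barcodes, Insm1 had the highest share with Aire. It was held by 87.7%, 80.5% and 79.6% of Insm1-positive barcodes and by 17.2%, 9.36% and 13.5% of negative ones, and by 51.7% and 12.8% over the 3 libraries after thinning. For Spib it was 66.7%, 61.1% and 68.9% against 18.5%, 10.8% and 13.3%, and 37.0% and 13.8% after thinning. Over the 3 libraries Aire was held by 67.2% of Foxj1-positive, 58.3% of Foxa1-positive and 56.9% of Sox8-positive barcodes, against 22.7% to 24.9% of the negative ones. After thinning these shares were 23.1% (6 of 26), 33.3% (11 of 33) and 29.4% (5 of 17) against 15.6%, 15.4% and 15.6%, and the intervals for Foxj1 (8.97 to 43.7) and Sox8 (10.3 to 56.0) held the share of the negative barcodes. The level of Aire rose in all 5 of these contrasts (log2 fold changes 3.31 with Insm1, 2.88 with Spib, 1.66 with Foxa1, 1.35 with Sox8 and 1.06 with Foxj1).

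With Pou2f3 and Spdef the level of Aire did not pass the test. Aire was held by 27.3%, 32.6% and 32.2% of Pou2f3-positive and by 26.7%, 20.0% and 27.2% of negative barcodes, and after thinning by 8.20% and 15.97% over the 3 libraries. Its level was at 88.0 against 227.5 CPM in the Foxn1Lin female library, 214.3 against 153.0 in the Foxn1Lin male library and 138.2 against 181.4 in the wild type library, so that the libraries did not share a direction (log2 fold change -0.42 ± 0.32). For Spdef the shares were 29.7% and 25.9%, and 1 of 10 barcodes and 15.8% after thinning. Of the rare factors, Aire was held by 3 of 15 Myog-positive, 6 of 12 Hnf4a-positive and 4 of 5 Neurod1-positive barcodes.

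Psmb11 ran the other way for most factors. It was held by 4.72% of Insm1-positive, 5.48% of Spib-positive and 2.78% of Sox8-positive barcodes, against 13.9%, 14.1% and 12.5% of the negative ones, and its level fell with Insm1, Spib, Sox8, Foxj1 and Foxa1. After thinning it was held by 1 of 151 Insm1-positive, 0 of 165 Spib-positive and 0 of 17 Sox8-positive barcodes (exact binomial upper limits 3.63%, 2.21% and 19.5%), against 6.65%, 6.75% and 6.25%. With Pou2f3 it was held by 30.7%, 6.52% and 16.5% of positive and 16.8%, 5.43% and 11.02% of negative barcodes, and after thinning by 3.28% and 6.29% over the 3 libraries. Ccl21a was held by 52.5% of Foxj1-positive and 30.1% of Foxj1-negative barcodes, but after thinning by 26.9% (7 of 26, interval 11.6 to 47.8) and 19.7%, with a log2 fold change of its level of -0.01. Its level fell with Spib, Sox8 and Insm1 by 1.36, 2.60 and 2.26 on the log2 scale.

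**Figure D5:**
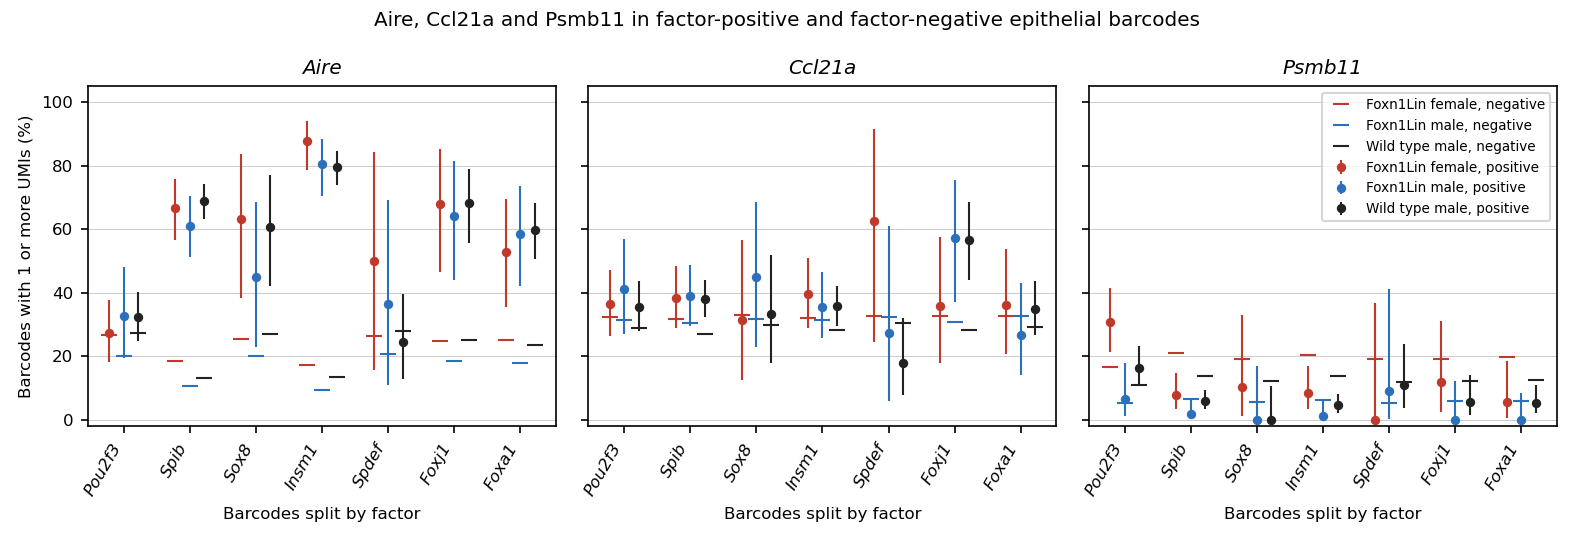
Share of barcodes holding Aire, Ccl21a or Psmb11 (percent, vertical axis) among barcodes positive for 7 factors (points with 95% exact binomial intervals) and negative for them (dashes), by library. Aire is at 79.6% to 87.7% of Insm1-positive and 9.36% to 17.2% of Insm1-negative barcodes, while for Pou2f3 the points lie at 27.3% to 32.6% and the dashes at 20.0% to 27.2%.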

How the data were processed

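The deposited count matrices hold UMI counts per gene and barcode, which the authors made with Cell Ranger (7.01 in the submitters' processing notes) on a custom GRCm38 reference with reporter transgenes, reads in introns included; headers of the unfiltered matrices name version 4. No normalization had been applied. Of 2 rows named Ccl21a, ENSMUSG00000094686 was used, which holds nearly all of the counts. No column of other samples was used (0), and no doublet was removed in the main analysis, since Scrublet's automatic threshold marked 0, 15 and 1 barcodes.

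Libraries were grouped by their labels, with 1 library per group. Barcodes of the filtered matrices were classed by Epcam, Pecam1 and Pdgfra. For each of the 7 factors with at least 5 positive barcodes in every library, UMI counts were summed per library over positive and negative epithelial barcodes and compared with edgeR 4.0.16 (R 4.3.3) by the quasi-likelihood test, with TMM scaling, filterByExpr, library as a block and Benjamini-Hochberg adjustment over all genes tested. Genes were called at an adjusted p under 0.05. The SE is the log2 fold change divided by the square root of F. The 3 libraries stand for pooled thymi. With library as a block, p-values measure how the difference between classes within a library varied over these libraries, and not the spread between mice. CPM is per 1000000 UMIs of the summed barcodes. Thinning drew 2000 UMIs per barcode without replacement. Droplets below the called range were used for free RNA. The method was tested on simulated data.

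The genes named are the 10 factors, the called genes of the list matched to each, Aire, Ccl21a, Psmb11 and Foxn1, and for each factor the 5 largest rises and 2 largest falls that passed and had 1 direction in all 3 libraries. List genes named although they did not pass, such as Trpm5, Gp2 and Muc5b, and genes of other lists were chosen after their values were seen. The factors and gene lists were chosen with earlier results of these data known, and the motifs after the results here. Promoter entries were found for 7 of the 10 factors. Alternatives were another scaling, no filter, no block, leaving out each library, DESeq2 1.42.0, thinning, at least 2 UMIs, stricter barcodes, and, chosen after seeing the data, Aire-negative barcodes, thinned co-detection and 2 other uses of Pecam1 and Pdgfra. One gene is not reported here.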

Additional observations from a re-analysis of the deposited data

Results flagged for a closer look

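Barcodes that were not called as cells but lay above the droplet range held UMIs of some factors, above the 3 that a count of 0 allows. In the 589 such barcodes of the Foxn1Lin female library there were 8 UMIs of Pou2f3, 5 of Spib and 4 of Insm1. In the 3892 of the Foxn1Lin male library there were 17 of Spib, 10 of Insm1 and 4 of Foxa1. In the 5833 of the wild type library there were 50 of Spib, 30 of Insm1, 13 of Foxa1, 7 of Pou2f3 and 6 of Foxj1.

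Tested genes of each factor's own list were checked for direction, with Aire, Ccl21a and Psmb11. For 25 pairs of such a gene and a factor the positive barcodes were higher in some libraries and lower in the others. These differences between libraries were not tested, and the values are log2 fold changes over the 3 libraries. With Pou2f3 they were Aire (-0.42), Ccl21a (-0.28), Gnat3 (4.11) and Psmb11 (0.56). With Spib they were the microfold genes Anxa5 (0.25), Gp2 (2.84) and Tnfaip2 (0.01). With Insm1 they were Car8 (0.90), the synaptic genes Snap25 (2.79), Stxbp5l (1.98) and Syp (0.75). With Spdef they were Aire (-0.17), Ccl21a (-1.32), Creb3l1 (0.03), Creb3l4 (2.43), Fcgbp (-0.52) and Muc5b (5.39). With Foxj1 they were Ccl21a (-0.01), Dnah5 (0.73) and Dnah9 (0.69). With Foxa1 they were the secretory genes Bpifb1 (1.20), Cyp2f2 (0.93), Scgb1a1 (1.25), Scgb3a1 (3.35) and Scgb3a2 (3.24).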

How the results depend on the processing

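Shares moved with depth and with the definition of a positive barcode. The share with any factor (38.4%, 35.4% and 47.1% in the Foxn1Lin female, Foxn1Lin male and wild type libraries) was 16.7%, 17.6% and 21.0% after thinning, 19.5%, 21.7% and 31.5% with at least 2 UMIs of a factor, and 29.6%, 31.1% and 41.6% without barcodes holding Ptprc, Myh11, Notch3 or Upk3b. It was 46.3% and 50.4% in the Foxn1Lin female and wild type libraries with at least 2 Epcam UMIs, and 52.1% in the wild type barcodes with Epcam and Pecam1 or Pdgfra. Barcodes with 2 or more factors were 2.12%, 2.93% and 5.48% after thinning. Over the 3 libraries, thinned barcodes with any factor held Aire in 35.3%, Ccl21a in 12.8% and Psmb11 in 1.31%, and those with none in 11.1%, 21.5% and 7.35%, so that the Ccl21a difference (36.2% against 27.8% at full depth) turned direction.

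Counts of genes called by edgeR (either direction) moved most. For Pou2f3 (0) they were 160 with no filter, 162 by DESeq2, 296 thinned, 24 with at least 2 UMIs, 1 without low-quality barcodes and the highest doublet scores, 55 without Aire and 0 to 117 leaving out 1 library. For Spib (4823) they were 1172 thinned, 1539 without Aire and 1467 to 4260 leaving out 1 library; for Sox8 (1086) 1939 with no filter and 594 to 1273; for Insm1 (5080) 1477 thinned, 673 without Aire and 2165 to 4523. For Spdef (16) they were 362 with no filter, 4 with no replicate block, 114 by DESeq2, 66 without low-quality barcodes and the highest doublet scores, and 28 to 431 leaving out 1 library. For Foxj1 (426) they were 1370 with no filter, 16 with no replicate block, 1010 by DESeq2, 175 without low-quality barcodes and the highest doublet scores, 97 without Aire and 27 to 505. For Foxa1 (872) they were 2043 with no filter, 513 with no replicate block, 1811 by DESeq2, 35 thinned, 577 without Aire and 4 to 356. Leaving out a library leaves 2 libraries in the fit. Without the Foxn1Lin male library 6 factors in place of 7 were higher in epithelial barcodes, Sox8 losing its call. With no replicate block the ciliated genes higher with Foxj1 were 1 in place of 4, the airway genes higher with Foxa1 0 in place of 3, and the goblet gene higher with Spdef, Wfdc2, lost its call.

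The library is the block, since each group is 1 library; without it 19 of 98 named genes lost their call and none changed sign. Over all alternatives, 813 of 910 values kept direction and call, 95 lost the call and 2 reversed: Foxn1 with Insm1 among Aire-negative barcodes (-0.54) and Bpifa1 with Foxa1 after thinning (-0.89). The causes were not tested. Another scaling and no filter each kept all 98. After thinning only 27 of the 98 could be read, of which 20 kept direction and call. Without Aire 55 could be read, of which 45 kept both. Thinned fits of Sox8, Spdef and Foxj1, fits of Spdef and Foxj1 at 2 UMIs, and Spdef without Aire were not run, since a library had fewer than 5 positive barcodes.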
